A study of Mus musculus with 7 samples.

Results

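Rn45s is the gene of the 45S pre-ribosomal RNA, and every ChIP-exo peak centred in the 10 kb of mm10 that hold its assembled copy, chr17:39840001-39850000, is described here. These 10 kb were chosen by their number of peaks, at least 20 in each of 6 of the 7 libraries, so the height of the signal is given as a description. They held 1263 of the 2603994 peaks deposited for all libraries. The level of tags and the count of peaks below are therefore what the choice used, whereas position and strand were not used by it. The spread of tags within a peak was not used directly, but it can depend on how dense the tags are.

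The ribosomal RNA genes are present in the mouse as tandem repeats at several nucleolar organisers. RNA polymerase I transcribes each repeat into one long precursor, in which a spacer precedes the RNA of the small ribosomal subunit, and the precursor is cut into the mature RNAs. An assembled genome holds few of these repeats, so reads of many repeats can be placed on the same copy where they align to it alone.

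CTCF, a zinc finger protein of insulators and domain borders, was assayed by ChIP-exo 5.0, which digests immunoprecipitated DNA with lambda exonuclease up to the crosslink and reads the stop as the 5′ end of a tag. The labels give the genotype as wildtype and the methods give male mice aged 16 weeks. The 7 libraries were brain, lung, kidney and liver, processed at 100 mg of tissue, and a titration of liver in 2.7-million-cell, 270-thousand-cell and 27-thousand-cell libraries. The cell numbers were estimated from the wet weight of the tissue, so the titration is also of liver tissue. Liver without a cell number means the library of the organ series. With 1 library per condition, differences between libraries could not be set against a replicate, and p-values were not computed. The labels give crosslinking with 0.3% formaldehyde, and the methods a higher concentration. The labels name a CTCF antibody for every library, although their extraction text names IgG. The libraries are chromatin of whole tissue, and the labels name no cell type. Intervals are exact 95% binomial intervals and cover counting error only. Where they count tags, they treat the tags of a peak as independent and are too narrow. The listed tags per library ran from 35594 in the 27-thousand-cell library to 6592538 in the 2.7-million-cell library, and no peak of fewer than 2 tags was listed. Single tags are therefore not seen in these data.

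The RefSeq table of GRCm38.p6 used here names 2 genes in these 10 kb. Rn18s-rs5, an 18S ribosomal RNA-related sequence classed as a pseudogene, lies at chr17:39846354-39848202. The long noncoding RNA AY036118 lies at chr17:39848112-39898385 and reaches far beyond the 10 kb. The table has no entry under the symbol Rn45s, so positions below are given relative to Rn18s-rs5. Its sequence is not printed because none of the sequence tables used here holds it.

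The peaks did not fill the 10 kb but one block with sharp edges. In the 2.7-million-cell library the first peak centre was at 39842991 and the last at 39848833, a block of 5.84 kb that starts 3363 bp before Rn18s-rs5 and ends 631 bp after it. The first 3 tiles of 1 kb held no tag in 6 libraries and 7 tags in the 2.7-million-cell library, all in the first peak of the block. The last tile of 1 kb held 3 tags in brain, 3 in kidney and none in the other 5 libraries. The peaks that lay in the 10 kb but beyond the block were 1 in brain, 2 in kidney and 1 in the 270-thousand-cell library. Just inside the end of the 10 kb, kidney had a forward peak of 3 tags at 39849902, and just outside it a reverse peak of 4 tags at 39850010. All 7 libraries together listed 1 peak of 2 tags in the 10 kb before and 4 peaks with 11 tags in the 10 kb after. Beyond the edges of the block the libraries were thus empty or nearly so.

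**Figure D1:**
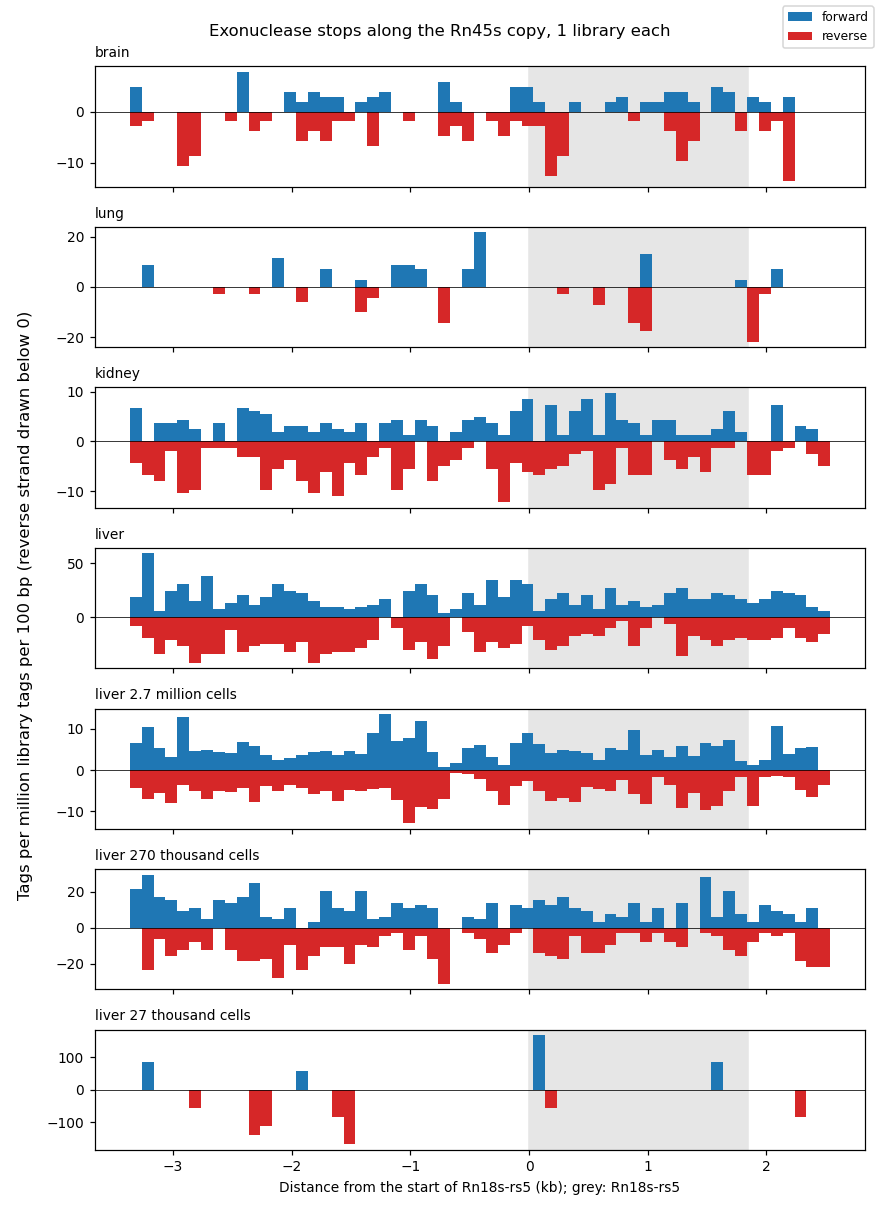
Per-million share of library tags in tiles of 100 bp (y axis, forward strand in blue above 0, reverse strand in red below 0) against the distance in kb from the start of Rn18s-rs5 (x axis, Rn18s-rs5 in grey), 1 panel per library with its own y axis. Tags run from 3363 bp before Rn18s-rs5 to 631 bp after it with no single dominant position, and the panels of lung and the 27-thousand-cell library rest on 30 and 11 peaks.

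Of the 4 organs, liver had the most tags on this copy. Liver had 1247 tags in 315 peaks of the 10 kb, kidney 775 in 208, brain 258 in 84 and lung 148 in 30. Scaled to the tags of the whole library, the 10 kb had a per-million share of 2366 in liver (2237 to 2501). Kidney had a share of 474 (441 to 508), brain of 249.8 (220.2 to 282) and lung of 214 (181 to 251). The intervals of brain and lung overlap, and those of kidney and liver overlap that of no other organ. They treat tags as independent and are too narrow. In lung 79.7% of the tags on the copy lay in peaks with all tags at 1 position, and in brain 38.8%. Liver was thus 9.47 times brain (8.28 to 10.9), 11.1 times lung (9.32 to 13.2) and 4.99 times kidney (4.56 to 5.47).

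These ratios need to be read against how often any stretch of 10 kb differed between the same libraries. Among the stretches with at least 20 tags in both libraries, 70.4% of 159 differed at least 2 times in either direction between liver and brain, 65.6% of 128 between liver and lung, and 59.9% of 222 between liver and kidney. A difference past 2 times was therefore common. The median stretch was higher in liver by 2.34, 1.72 and 2.25 times in that order. A ratio as high as that of the Rn45s copy was reached by 2 of the 159 stretches against brain, 4 of 128 against lung and 6 of 222 against kidney, counts that include the Rn45s copy itself. Over the 12 other dense stretches of the assembled chromosomes, chosen by the same rule as the Rn45s copy, the median ratio was 2.46 against brain, 3.82 against lung and 1.87 against kidney.

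The libraries also differed in how many peaks had all of their tags at 1 position, which is a standard deviation of 0, and the size of the organ difference moved with how such peaks were counted. Of the organs, kidney had the most such peaks, 91.5% of all peaks of the library, and liver the fewest, 76.3%, with brain at 83.2% and lung at 83.1%. When only peaks with a standard deviation above 0 were kept, on the copy and in the library, the per-million share became 5516 in liver, 2259 in kidney, 590.4 in brain and 225 in lung. Liver was then 9.34 times brain, 24.5 times lung and 2.44 times kidney. Liver was still the highest organ and lung still the lowest. Only 10 peaks of the copy in lung had spread tags, so the value in lung rests on few peaks.

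In the titration of liver the share on the copy, counted over all peaks, was lowest in the largest library. With peaks of spread tags alone the 270-thousand-cell library stayed the highest, and the 27-thousand-cell library became the lowest. Per-million shares were then 739 in the 2.7-million-cell, 2900 in the 270-thousand-cell and 648 in the 27-thousand-cell library, the last of these from 3 peaks. Over all peaks the copy held 4131 tags in 399 peaks in the 2.7-million-cell library, 797 tags in 216 peaks in the 270-thousand-cell library and 39 tags in 11 peaks in the 27-thousand-cell library. The per-million shares were 627 (608 to 646), 1244 (1159 to 1333) and 1096 (779 to 1498). The share in the 270-thousand-cell library was 1.99 times that in the 2.7-million-cell library (1.84 to 2.14), and 24.3% of 1255 stretches of 10 kb differed at least 2 times between these libraries, with a median ratio of 0.751. Over the 12 other dense stretches the median ratio was 2.46, above that of the copy, and with peaks of spread tags alone the ratio of the copy became 3.92. From the 270-thousand-cell to the 27-thousand-cell library the ratio was 0.881 (0.622 to 1.22), an interval that holds 1, where 18.2% of 22 stretches differed at least 2 times, with a median ratio of 1.57, and 20 of the 22 had a ratio at least as high. Per 1000 cells of the label, the copy gave 1.53 tags in the largest library (1.48 to 1.58), 2.95 in the middle one (2.75 to 3.16) and 1.44 in the smallest (1.03 to 1.97). The whole libraries listed 2442, 2373 and 1318 tags per 1000 cells in that order, and the numbers of cells are estimates.

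The share on this copy was higher in the liver library of the organ series than in each of the titration libraries. The liver library was 3.78 times the 2.7-million-cell library (3.54 to 4.02), and 66.8% of 217 stretches differed at least 2 times between them, with a median ratio of 2.52. A ratio at least as high was found in 28.1% of these stretches. The liver library had 527038 listed tags, and peaks under 2 tags are listed in neither library. When the 2.7-million-cell library was thinned by calculation to the listed tags of the liver library, with the same floor of 2 tags, its share rose from a per-million share of 627 to 829, which is below the 2366 of the liver library. The calculation draws only on listed peaks, without single tags or the positions of tags. Peaks with all tags at 1 position were 76.35% of all peaks in the liver library and 33.15% in the 2.7-million-cell library. The thinned share is therefore not what depth alone would give in the liver library. With peaks of spread tags alone, the ratio of the liver library to the 2.7-million-cell library became 7.46. The amount of input and the single library cannot be told apart.

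**Figure D2:**
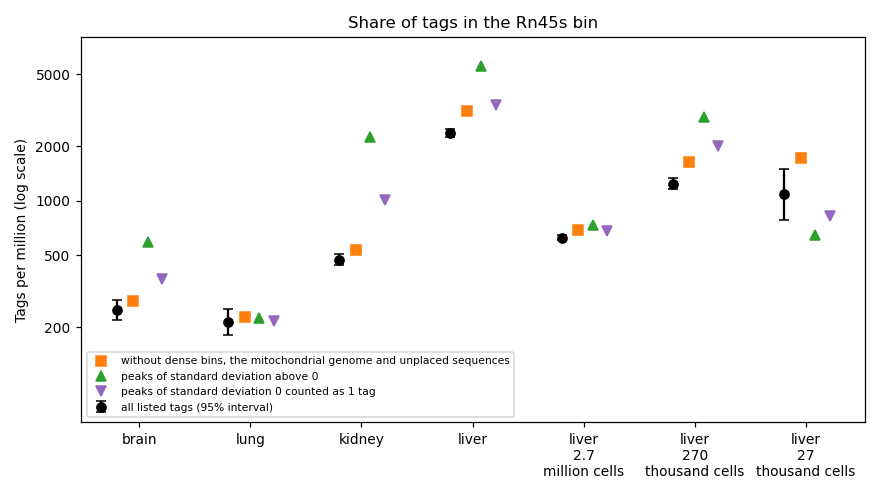
Per-million share of tags on the Rn45s copy (y axis, log scale) in each library (x axis), with the 95% interval for all listed tags in black and 3 other ways of counting in colour. Liver is the highest and lung the lowest of the 4 organs in each way of counting, and the value of kidney rises most as a fold, from 474 to 2259, when peaks of 1 position are left out.

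Within the block the tags were spread over its whole length. In tiles of 100 bp, 58 of which fit the block, no tile was empty in kidney, liver or the 2.7-million-cell library, 2 were empty in the 270-thousand-cell library, 14 in brain, 36 in lung and 47 in the 27-thousand-cell library. The median tile in the 2.7-million-cell library held 68.5 tags, the lowest 15 and the highest 138. The median tile of the liver library held 21 tags, the lowest 4 and the highest 41. In that library the 21 bp peaks covered 51.6% of the forward strand and 55.6% of the reverse strand of the block, and in the 2.7-million-cell library 68.4% and 66.6%. The variance over tiles was 2.79 times the mean in the liver library and 8.95 times in the 2.7-million-cell library, so the tiles differed by more than counts of a uniform rate would, under which this ratio is 1. Even so, the strongest peak held 1.07% of the tags of the copy in the 2.7-million-cell library, 0.882% in liver, 1.68% in kidney, 2.71% in brain and 8.11% in lung.

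The highest and the lowest tile of the 2.7-million-cell library lay close together before Rn18s-rs5. They were picked after their values were seen. The highest tile, at chr17:39845391-39845490, held 79 forward and 59 reverse tags there and 28 tags in the liver library, where the mean tile held 21.3. It held 7 tags in kidney and 11 in the 270-thousand-cell library, where the mean tiles held 13.1 and 13.5. It held 5 tags in lung, above the mean tile of 2.55, and none in brain or in the 27-thousand-cell library. The highest tile of one library was thus not high in all. The lowest tile, at chr17:39845691-39845790, held 15 tags in the 2.7-million-cell library, 4 in the liver library, 9 in kidney, 5 in brain and none in lung or in the 270-thousand-cell or 27-thousand-cell library. It was below the mean tile in every library except brain, whose mean tile held 4.40 tags.

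Tags were about as dense inside Rn18s-rs5 as before it in most libraries. Rn18s-rs5 makes up 31.6% of the length of the block, and it took 26.7% of the liver tags of the 10 kb (24.3 to 29.3), 30.1% of those of kidney (26.9 to 33.4), 32.2% of those of brain (26.5 to 38.3) and 32.4% of those of lung (25.0 to 40.6). In the 2.7-million-cell, 270-thousand-cell and 27-thousand-cell libraries it took 31.2% (29.8 to 32.7), 28.5% (25.4 to 31.8) and 28.2% (15.0 to 44.9). Per kb, Rn18s-rs5 held 0.770 times the tags of the 3.36 kb before it in liver (0.675 to 0.876) and 0.843 times in the 270-thousand-cell library (0.717 to 0.988). The same ratio was 0.950 in the 2.7-million-cell library (0.887 to 1.02), 0.888 in kidney (0.756 to 1.04), 1.05 in brain (0.790 to 1.38) and 1.02 in lung (0.698 to 1.46), intervals that hold 1. In the 27-thousand-cell library 11 tags fell inside Rn18s-rs5 and the ratio was 0.800 (0.355 to 1.69). The tags of a peak are not independent, so these intervals are too narrow. Counting each peak once, Rn18s-rs5 took 28.57% in liver and 31.48% in the 270-thousand-cell library, nearer its 31.6% of the length. Whether the lower density in liver or the 270-thousand-cell library goes beyond counting error by peaks was not tested.

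The peaks of single libraries were low. The median peak of the copy held 10 tags in the 2.7-million-cell library and between 3 and 4.5 tags in the other libraries, and the strongest held 44, whereas the strongest peak of that library anywhere held 3500. The strongest peaks in the 2.7-million-cell library were a reverse peak of 44 tags at 39845345, at -1009 bp from the start of Rn18s-rs5, and a forward peak of 39 tags at 39846291, at -63 bp. The reverse peak at 39846091 held 30 tags there and had a neighbour of 11 tags 1 bp away in the liver library, at 39846092, where it was among the strongest peaks. In kidney the strongest were 3 reverse peaks of 13 tags each, at 39844721, 39845286 and 39846178. In brain the strongest was a reverse peak of 7 tags at 39843578, and in lung a reverse peak of 12 tags at 39847339 whose tags all lay at 1 position. In the 270-thousand-cell library it was a forward peak of 14 tags at 39843098, and in the 27-thousand-cell library 2 peaks of 6 tags each. No position was thus the strongest in more than 1 library.

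Most positions were found in 1 or 2 libraries. Peaks of one strand within 5 bp of each other were taken as one position, which gave 774 positions, of which 413 were found in 1 library, 258 in 2, 80 in 3, 21 in 4 and 2 in 5. None was found in 6 or 7, which would need lung, with 30 peaks, or the 27-thousand-cell library, with 11. The same count was not made over all peaks of the series, so low sharing is not shown to be particular to this copy. The positions found in 5 were the reverse position 39847650, inside Rn18s-rs5, and the forward position 39848487, after it. The reverse one held 4 tags in brain, 3 in kidney, 5 in liver, 20 in the 2.7-million-cell library and 7 in the 270-thousand-cell library. The forward one held 5 tags in lung, 3 in kidney, 3 in liver, 23 in the 2.7-million-cell library and 4 in the 270-thousand-cell library.

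The 10 positions with the highest mean share over the 7 libraries all had tags in the 27-thousand-cell library, where a single tag weighs most, and each was found in 2 to 4 libraries. The first, the reverse position 39844825, held 6 tags in liver, 9 in the 2.7-million-cell library and 6 in the 27-thousand-cell library, and none in the other 4 libraries. The second, the forward position 39846487, held 5 tags in kidney, 19 in the 2.7-million-cell library, 3 in the 270-thousand-cell library and 6 in the 27-thousand-cell library. The third, the reverse position 39844058, held 2 tags in kidney, 8 in liver, 6 in the 270-thousand-cell library and 5 in the 27-thousand-cell library, but no peak in the 2.7-million-cell library.

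Overlap between libraries was near, or above, the share of the block that lies near a peak of the other library. Of the liver library peaks, 46.3% had a peak of the same strand within 5 bp in the 2.7-million-cell library (40.7 to 52.0), and 37.5% of the block lay within 5 bp of such a peak. Of the peaks in the 2.7-million-cell library, 36.6% had one in the liver library (31.9 to 41.5), with 29.7% of the block in reach. Of the kidney peaks, 49.0% were found in the 2.7-million-cell library (42.1 to 56.0), also above the 37.5% in reach. The intervals of the liver library and kidney thus lie above the share in reach. For brain 40.5% were found there (29.9 to 51.7), for lung 43.3% (25.5 to 62.6) and for the 270-thousand-cell library 43.1% (36.4 to 49.95), intervals that hold 37.5. Of the 315 liver peaks, 17.8% were found in the 270-thousand-cell library (13.7 to 22.5), where 20.3% of the block was in reach.

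The profiles along the copy were weakly related at most. Over 116 tiles of 100 bp and strand, Spearman's rho was 0.34 between the liver library and the 2.7-million-cell library, 0.34 between the 2.7-million-cell and 270-thousand-cell libraries, 0.31 between kidney and the 2.7-million-cell library and 0.27 between kidney and liver. It was below 0 for brain with lung, for brain with the 2.7-million-cell library and for brain with the 270-thousand-cell library, and also for lung and kidney with the 27-thousand-cell library. The tiles share base composition and the places where reads align to 1 place, and they are not independent. Low counts also limit rho. With both strands together, the mean tile held 4.40 tags in brain, 2.55 in lung and 0.672 in the 27-thousand-cell library. A low rho therefore does not show that the profiles differ. Within the 2.7-million-cell library the forward and reverse profiles had a rho of 0.036 over 58 tiles.

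In brain, kidney, the liver library and the 2 larger titration libraries, peaks of 2 tags on this copy had spread tags more often than such peaks elsewhere. Where tags are dense, tags of different positions can fall in 1 peak more often. The copy was chosen for its many peaks, so this comparison is not independent of the choice. Among peaks of 2 tags, both tags lay at 1 position in 6 of 72 in liver (8.33%, 3.12 to 17.3), against 80.5% of such peaks in the rest of the library. In the 2.7-million-cell library this was so in 0 of 10 (an upper bound of 30.9%), against 48.3%, and in the 270-thousand-cell library in 10 of 68 (14.7%, 7.28 to 25.4), against 74.4%. In kidney it was 20 of 81 (24.7%, 15.8 to 35.5), against 88.4%, and in brain 14 of 40 (35%, 20.6 to 51.7), against 83.9%. In lung it was 4 of 9 and in the 27-thousand-cell library 2 of 3, too few for a comparison. Among peaks of at least 6 tags in lung, 11 of 12 had their tags at 1 position (91.7%, 61.5 to 99.8), an interval that holds the 85.9% of the rest.

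Over peaks of any height the share at 1 position was 39.3% in brain, 66.7% in lung, 18.8% in kidney, 1.90% in liver, 0 in the 2.7-million-cell library, 8.33% in the 270-thousand-cell library and 72.7% in the 27-thousand-cell library. The mitochondrial genome, which also has many copies per cell, had shares of 0.783%, 72.1%, 2.98%, 1.54%, 0, 1.37% and 54.4% in the same order. The densest other stretch, at chr2:98660001-98670000, had at most 1.63% in any library, but its strongest peak alone held between 4.19% and 7.49% of its tags. On the Rn45s copy that share was below 3% except in lung and in the 27-thousand-cell library, where the copy held 148 and 39 tags.

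**Figure D3:**
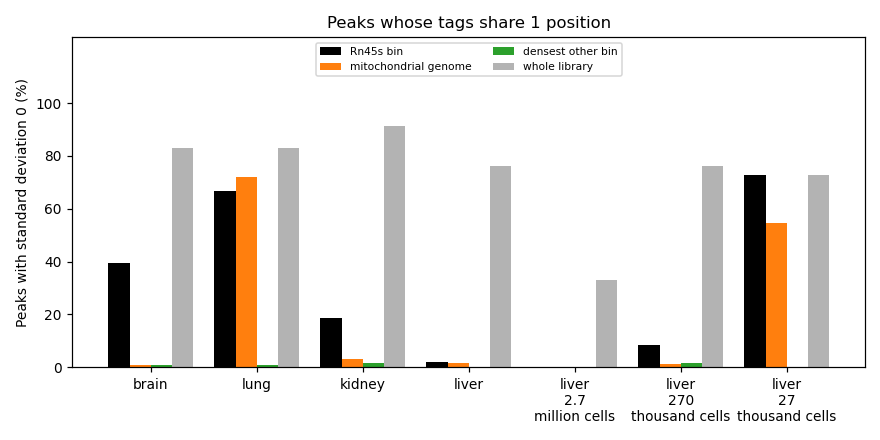
Share of peaks in percent whose tags all lie at 1 position (y axis) in each library (x axis), for the Rn45s copy, the mitochondrial genome, the densest other stretch of 10 kb and the whole library. On the Rn45s copy the share runs from 0 in the 2.7-million-cell library to 72.7% in the 27-thousand-cell library and lies below that of the whole library in the other 6 libraries, while both are near 73% in the 27-thousand-cell library.

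Tags leaned to the reverse strand in brain, kidney and the liver library. The forward strand held 96 of 258 tags in brain (37.2%, 31.3 to 43.4), 316 of 775 in kidney (40.8%, 37.3 to 44.3) and 568 of 1247 in liver (45.5%, 42.8 to 48.4), whereas it held 49.8%, 49.5% and 49.0% of all tags of these libraries. Forward and reverse tags were equal in lung, 74 each (41.7 to 58.3%). The forward share was 49.5% in the 2.7-million-cell library (48.0 to 51.1), 48.9% in the 270-thousand-cell library (45.4 to 52.5) and 35.9% in the 27-thousand-cell library (21.2 to 52.8). Counting each peak once, the forward share was 40.5% in brain (34 of 84), 43.8% in kidney (91 of 208) and 48.3% in liver (152 of 315). The lean was thus smaller by peaks than by tags, and no interval was computed by peaks. Inside Rn18s-rs5 the forward share of brain was 38.6% (28.1 to 49.9), of kidney 46.4% (39.8 to 53.0) and of liver 48.9% (43.5 to 54.5). Before Rn18s-rs5 it was 38.9%, 38.2% and 43.8%. The equal strands of lung were made of 67.4% forward tags before Rn18s-rs5 (56.5 to 77.2) and 22.9% inside it (12.0 to 37.3), from 19 and 8 peaks. All tags of a peak lie on its strand and are not independent, so the intervals by tags are too narrow, also where few peaks have 1 position. Whether the lean of brain, kidney or liver goes beyond counting error by peaks was not tested.

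In brain, kidney and liver the strand shares of the mitochondrial genome and the densest other stretch differed in direction from those of the copy. On the mitochondrial genome the forward share of brain was 58.2%, of kidney 55.1% and of liver 54.0%, and it was 44.7% and 43.3% in the 2.7-million-cell and 270-thousand-cell libraries. In lung and the 27-thousand-cell library it was 49.0% (41.7 to 56.3) and 32.9% (27.1 to 39.2), close to the 50% and 35.9% of the copy. On the densest other stretch it was 54.9%, 56.2% and 54.0% in brain, kidney and liver, values that lie above 50% where those of the copy lie below it. With peaks of spread tags alone, the forward share of the Rn45s copy was 33.5% in brain, 39.4% in kidney and 45.3% in liver.

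**Figure D4:**
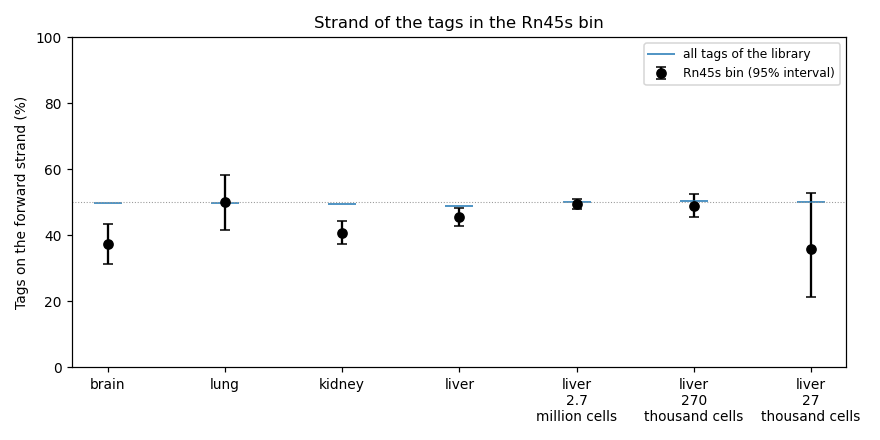
Percent of tags on the forward strand of the chromosome (y axis) in each library (x axis), for the Rn45s copy with its 95% interval in black and for all tags of the library in blue. The intervals of brain, kidney and liver lie below 50%, and those of the other 4 libraries hold it. They treat the tags of a peak as independent and are too narrow.

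The pair of stops that a crosslinked protein leaves, a forward peak followed by a reverse peak a short distance downstream, did not stand out on this copy. Reverse peaks lay 10 to 80 bp downstream of a forward peak 498 times in the 2.7-million-cell library and as far upstream 472 times, a ratio of 1.06. In the same library outside the dense stretches, the mitochondrial genome and unplaced sequences, the ratio was 2.66. On the copy it was 1.05 in kidney, 1.04 in liver, 1.17 in brain and 1.20 in the 270-thousand-cell library, and in the rest of these libraries 1.72, 2.21, 2.63 and 5.43. Peaks of both strands are dense on the copy, so unrelated peaks can also lie at these distances on both sides. A ratio near 1 therefore does not show that such pairs are absent. The lung library had 1 downstream and 2 upstream pairs on the copy and the 27-thousand-cell library 1 and 0, too few to compare. The commonest distance within 200 bp was 137 bp in kidney, 94 bp in liver, 81 bp in the 2.7-million-cell library, 140 bp in the 270-thousand-cell library and -197 bp in brain, and it exceeded the mean count over all distances at most 1.88 times in the 4 libraries with 726 or more pairs. In the rest of these libraries the commonest distance exceeded the mean 1.71 times in kidney, 2.01 times in liver, 1.999 times in the 2.7-million-cell library and 2.71 times in the 270-thousand-cell library, so by this measure kidney was no lower on the copy. The copy had fewer pairs, 726 in kidney against 20548 in the rest, and a maximum over many distances rises when pairs are few. The 2 sides are therefore not compared by this measure. Weighted by tags, the commonest distance on the copy changed sign in lung, kidney and the 2.7-million-cell library.

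**Figure D5:**
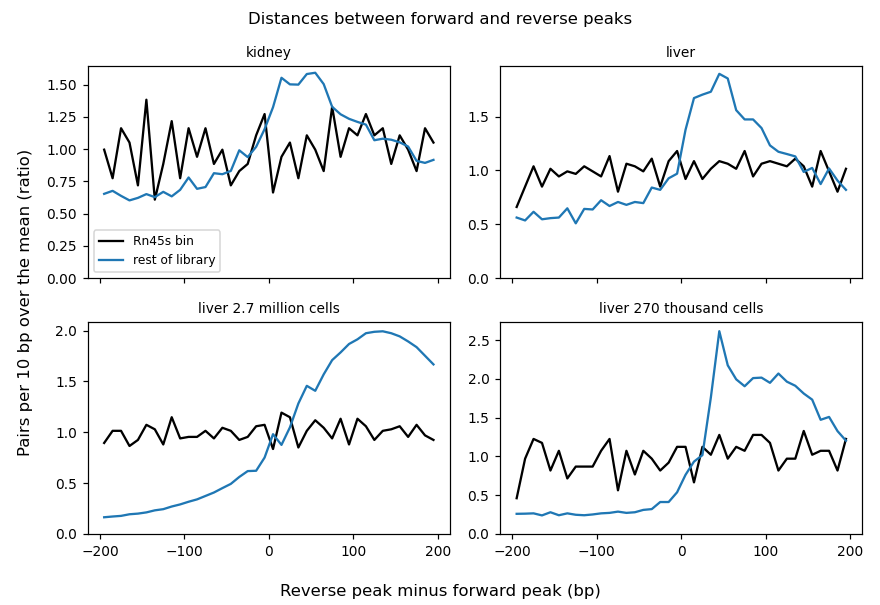
Pairs of a forward and a reverse peak per 10 bp of distance, divided by their mean over all distances (y axis, ratio), against the position of the reverse peak minus that of the forward peak in bp (x axis) in 4 libraries. The curve of the Rn45s copy (black) varies around 1 on both sides of 0, with ratios of downstream to upstream pairs of 1.04 to 1.20, whereas that of the rest of the library (blue) is higher downstream, with ratios of 1.72 to 5.43.

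The genes that make and process ribosomal RNA lie elsewhere in the genome, and their values are given beside those of the copy as a description, since the copy was chosen for its many peaks. The list held 25 genes: 8 subunits of RNA polymerase I, its factors Ubtf, Rrn3, Ttf1 and Taf1a to Taf1d, the silencing proteins Baz2a and Smarca5, the deacetylase Sirt7, and nucleolar proteins such as Ncl, Npm1, Fbl and Dkc1. All 25 were in the RefSeq table, Polr1f, Polr1g and Polr1h under the older symbols Twistnb, Cd3eap and Znrd1. Over the gene with 1 kb on each side, brain listed tags at 23 of them, lung at 16, kidney at 24 and liver at 19, and there were 25 in the 2.7-million-cell library, 22 in the 270-thousand-cell library and 1 in the 27-thousand-cell library. Of the 25152 genes of the table within the range of lengths of the list, 80.5% had tags in brain, 57.9% in lung, 89.5% in kidney, 70.8% in liver, 96.4% in the 2.7-million-cell, 67.1% in the 270-thousand-cell and 7.18% in the 27-thousand-cell library. In brain, lung, kidney and liver the median gene had a per-million share per kb of 0.426, 0.520, 0.407 and 0.439. The block of the Rn45s copy held 42.3, 36.6, 80.6 and 405 in the same order and unit. It was counted between the first and the last peak of the 2.7-million-cell library, without 1 kb on each side, so the windows are not alike.

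Single genes of this list differed in which organ was highest. Ubtf, the factor that coats transcribed ribosomal RNA genes, held 51 tags in lung, 22 in kidney, 20 in brain and 7 in liver, and had its highest per-million share per kb in lung, 3.50, against 0.630 in liver. Taf1c, a subunit of the promoter selectivity factor of RNA polymerase I, held 27, 5, 27 and 4 tags in that order and was also highest in lung, at 4.23, against 0.822 in liver. Polr1b, a large subunit of the polymerase, held 29, 60, 31 and 62 tags and was highest in liver, at 4.04, against 1.03 in brain. In the 2.7-million-cell and 270-thousand-cell libraries Polr1b had 0.548 and 0.483, below each of the organs, so its high value in liver rests on 1 library. In the same order Ubtf had 2.63 and 1.55, above liver, brain and kidney, so its low value in liver also rests on 1 library. Taf1c had 1.41 and 0.338, above and below its value in liver. These 3 genes were picked after their values were seen. Of the 24 genes with tags in any organ, 9 had their highest share per kb in lung, 6 in brain, 5 in liver and 4 in kidney. The same count was not made over all genes of the table, so it is not read as a result about this list.

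Of the 9 structural RNA genes listed, mt-Rnr1 and mt-Rnr2, which encode the mitochondrial ribosomal RNAs, were denser than the Rn45s copy in every library but lung. Their windows overlap. With 1 kb on each side, mt-Rnr2 had a per-million share per kb of 729 in brain, 279 in kidney, 668 in liver, 509 in the 2.7-million-cell library, 1059 in the 270-thousand-cell library and 392 in the 27-thousand-cell library. In lung Rn18s-rs5 was the densest of the list, with 36.5, and mt-Rnr2 had 25.8. Rn7s1 and Rn7s2, which encode the RNA of the signal recognition particle, held 475 and 180 tags in the 2.7-million-cell library, a per-million share per kb of 31.3 and 11.9. The 5S ribosomal RNA genes, which RNA polymerase III transcribes, were counted in the same way: of 69 genes and pseudogenes with 1 kb on each side, brain listed tags at 6, lung at 3, kidney at 12 and liver at 4, and there were 42 in the 2.7-million-cell library, 11 in the 270-thousand-cell library and none in the 27-thousand-cell library. Of the 290 genes of the table within the same range of lengths, tags were listed at 59 in brain, 27 in lung, 83 in kidney, 42 in liver, 185 in the 2.7-million-cell library, 38 in the 270-thousand-cell library and none in the 27-thousand-cell library. These 290 include the 69. Many 5S sequences are near-identical copies, and reads that align to several places were removed, so these counts are uncertain.

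The stretches of 10 kb whose level over the 6 larger libraries was most like that of the Rn45s copy were not genes. Of 94 stretches with at least 20 tags in each of these libraries, the 5 with the highest Pearson correlation of log2 per-million shares, 0.986 to 0.997 over 6 libraries, held no annotated gene. There were 3 on one unplaced sequence, 1 on another and 1 on chromosome 18. The most similar had a per-million share of 471 in liver, 156 in kidney, 88.1 in brain and 79.5 in lung, 168 in the 2.7-million-cell library and 323 in the 270-thousand-cell library. These are descriptions over 6 libraries of unequal depth.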

How the data were processed

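ChIP-exo 5.0 for CTCF was measured in 7 mouse libraries, each its own group. The submitters' processing notes name BWA 0.7.9a, bcl2fastq 2.16 and mm10. The methods state that non-unique alignments and PCR duplicates were removed, although their text names other genomes. The authors deposited a GeneTrack peak list per library, with 21 bp peaks, a tag count for each (raw counts) and the standard deviation of the tag positions. Peaks under 2 tags are not in the lists.

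Tags were divided by the library total, with exact Clopper-Pearson intervals and no tests. Tags without molecular identifiers are not independent molecules. Dense stretches are the 23 of 10 kb, 13 of them on assembled chromosomes, with at least 20 peaks in 6 or more libraries. The members and lists were chosen with earlier results of these data known. Named positions were the 10 of highest mean share and the strongest peaks of each library, to which those found in 5 libraries were added after their values were seen. The planned interval of the Rn45s gene was replaced by Rn18s-rs5, since the RefSeq table of 49997 genes used here has no entry of that name, and motifs were not searched. The thinning formula and the ratio calls were tested on simulated data. Python 3.11.15 was used with pandas 2.3.3, scipy 1.17.1, numpy 2.4.6 and matplotlib 3.10.9. Alternatives were peaks of at least 5 tags, other denominators, peaks of spread tags, each peak counted once, leaving out the strongest peak, and other overlap limits.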

Additional observations from a re-analysis of the deposited data

How the results depend on the processing

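Of 130 recomputed values, 63 moved by less than their counting interval, 64 moved by more and 3 changed sign. No paired analysis was possible because each group has 1 library, and no replicate could be left out. Single libraries, the floor of 2 tags and the low counts of lung and the 27-thousand-cell library limit every value. The causes of the changes below were not tested.

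Without dense stretches, the mitochondrial genome and unplaced sequences in the denominator, the per-million share became 536.8 in kidney, 3145 in liver, and 688.4, 1638 and 1732 in the titration libraries from the largest to the smallest. The ratios of liver became 11.28 to brain, 13.84 to lung, 5.858 to kidney and 4.568 to the 2.7-million-cell library, and that of the 270-thousand-cell to the 2.7-million-cell library 2.379. With peaks of at least 5 tags the share became 203.4 in brain, 523.5 in kidney, 4411 in liver and 1008 in the 2.7-million-cell library.

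With peaks of spread tags alone the share became 590.4 in brain, 2259 in kidney, 5516 in liver, and 739.3, 2900 and 647.7 in the titration libraries. The ratios of liver became 24.5 to lung, 2.442 to kidney and 7.461 to the 2.7-million-cell library, that of the 270-thousand-cell to the 2.7-million-cell library 3.923, and that of the 27-thousand-cell to the 270-thousand-cell library 0.2233. Counting peaks with all tags at 1 position as 1 tag gave shares of 368.9 in brain, 1012 in kidney, 3379 in liver, 682.9 in the 2.7-million-cell library and 2003 in the 270-thousand-cell library. Rn18s-rs5 alone had a share of 80.36 in brain, 69.42 in lung, 142.5 in kidney, 631.8 in liver, and 195.7, 354.3 and 309 in the titration libraries. Thinned to the other libraries, the 2.7-million-cell library had a share of 828.7 (brain), 836.6 (lung), 795.2 (kidney), 829.4 (liver), 835.6 (270-thousand-cell) and 499.5 (27-thousand-cell).

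The forward share became 30.14% in brain and 41.4% in liver with peaks of at least 5 tags, and 93.33% in lung and 55.56% in the 27-thousand-cell library with spread peaks alone. The share of tags inside Rn18s-rs5 became 6.667% in lung and 0% in the 27-thousand-cell library with spread peaks alone.

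With identical centres, the share of peaks found in the 2.7-million-cell library fell to 3.571% for brain, 3.333% for lung, 4.808% for kidney, 5.079% for liver, 3.704% for the 270-thousand-cell library and 0% for the 27-thousand-cell library, and that of the 2.7-million-cell library in the 270-thousand-cell library to 2.005%. Within 10 bp these became 64.29% for brain, 80% for lung, 71.15% for kidney, 75.87% for liver and 75.46% for the 270-thousand-cell library, and 42.11% for the last comparison. The 21 bp peaks of the 2.7-million-cell library, which reach 10 bp to each side, covered 68.42% of the forward and 66.61% of the reverse strand of the block. Brain lay below both values, and lung, kidney, liver and the 270-thousand-cell library above. For the last comparison the 270-thousand-cell library covered 36.95% and 37.72%. With peaks of at least 5 tags, the share found became 23.08% for brain and 56.84% for liver. The share in reach was not computed for identical centres or for peaks of at least 5 tags. Weighted by tags, the commonest distance changed from -192 to 38 bp in lung, from 137 to -144 bp in kidney and from 81 to -5 bp in the 2.7-million-cell library.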
